A study of Mus musculus with 15 samples.

Results

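Mammary tumors of ErbB2KI mice were divided by the level of Pgap3, a gene that lies beside Erbb2, and the tumors with high Pgap3 were compared with those with low Pgap3. The tumors were chosen by their measured Pgap3 value, which was read from the only transcript cluster of the array annotated to Pgap3 alone, cluster 17268794. A log2 array value above 10 was called high and a value of 10 or below low, whatever the genotype. Of the 15 tumors, 6 were high and 9 low. The high tumors were 3 of the 5 with Ctnnb1 fl/fl (HOM 1, HOM 3 and HOM 5) and 3 of the 5 with Ctnnb1 wt/wt (WT 2, WT 3 and WT 4). The low tumors were HOM 2 and HOM 4, all 5 with Ctnnb1 fl/wt (HET 1 to HET 5), and WT 1 and WT 5. Because no HET tumor was high, part of the difference between the sides cannot be told apart from genotype in the fit of all tumors. Values that compare tumors only within WT and within HOM are therefore given beside it. With genotype as a term, the difference of a gene is by design the same as without the HET tumors. Agreement between those values is therefore no separate check.

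All 15 tumors carried the ErbB2KI allele, and the floxed Ctnnb1 alleles, which encode beta-catenin, were meant to be deleted in the mammary epithelium. RNA came from tumors frozen at end burden, with 1 array per tumor. Neither the Cre driver nor the age of the mice is stated in these sources, and it is likewise unstated if each tumor had its own mouse. The p-values below therefore measure the spread between these tumors, which may share a mouse. As background, the ErbB2KI model is known to carry an activated rat Erbb2 cDNA at the mouse locus. Which Erbb2 transcripts the mouse probes of the array read was not tested here.

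Pgap3 encodes a Golgi enzyme that remodels the lipid tail of GPI anchors, the glycolipids that hold many proteins on the cell surface. Its neighbour Stard3 encodes a protein that carries cholesterol to late endosomes at contacts with the endoplasmic reticulum. Erbb2 encodes a receptor tyrosine kinase of the epidermal growth factor receptor family that drives the MAPK cascade. In human breast cancer these genes lie together in a stretch that is often gained as 1 block, and copy gain of the Erbb2 locus is also known in this mouse model. DNA copy number was not measured in these samples.

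The transcription start regions of the 3 genes are shown because Pgap3 and Stard3 moved together across the tumors and Erbb2 did not follow them. The sequences are those of RefSeq for GRCm38.p6, from 250 bases before to 50 bases after the annotated start, 5′ to 3′ on the strand of the gene. Pgap3 lies on the minus strand at chr11:98400441-98400740, Stard3 on the plus strand at chr11:98358118-98358417 and Erbb2 on the plus strand at chr11:98412234-98412533. Capitals mark the GC box GGGCGG and the CCAAT box CCAAT on either strand.
Pgap3: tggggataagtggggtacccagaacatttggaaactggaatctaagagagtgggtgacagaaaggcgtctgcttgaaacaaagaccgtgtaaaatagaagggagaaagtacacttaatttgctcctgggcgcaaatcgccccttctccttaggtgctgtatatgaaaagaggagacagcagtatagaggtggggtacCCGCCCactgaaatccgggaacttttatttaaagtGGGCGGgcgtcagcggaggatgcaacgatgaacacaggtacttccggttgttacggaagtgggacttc
Stard3: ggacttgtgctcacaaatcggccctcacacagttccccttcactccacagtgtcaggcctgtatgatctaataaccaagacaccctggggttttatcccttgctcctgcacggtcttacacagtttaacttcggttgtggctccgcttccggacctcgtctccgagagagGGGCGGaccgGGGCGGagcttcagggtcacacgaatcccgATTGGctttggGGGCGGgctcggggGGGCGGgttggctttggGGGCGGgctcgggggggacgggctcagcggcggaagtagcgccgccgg
Erbb2: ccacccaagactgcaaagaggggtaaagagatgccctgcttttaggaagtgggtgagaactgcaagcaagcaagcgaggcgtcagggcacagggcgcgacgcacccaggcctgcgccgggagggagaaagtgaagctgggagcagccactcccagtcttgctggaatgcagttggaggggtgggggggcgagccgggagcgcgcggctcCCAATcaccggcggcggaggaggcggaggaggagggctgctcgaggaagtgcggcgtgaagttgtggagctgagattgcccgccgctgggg
The Pgap3 window held 2 GC boxes and the Stard3 window 5, against 0 in the Erbb2 window. A CCAAT box was found once each in the Stard3 and Erbb2 windows and not in that of Pgap3. The TATA box TATAAA was searched on both strands and matched in none of these windows. Of 32851 RefSeq windows of the same length, 35.7% held a GC box, 37.4% a CCAAT box and 13.6% a TATA box. These matches describe the letters of the windows only.

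Pgap3 itself divided the tumors with a wide gap. It lay between 11.37 and 12.57 in the high tumors (median 12.41) and between 7.07 and 9.08 in the low tumors (median 8.26). The tumor just inside the threshold was HOM 3 at 11.37 and the one just outside was HOM 4 at 9.08. No tumor lay between these values, so a threshold of 11 gave the same sides, and a threshold of 9 moved only HOM 4. Among the high tumors, WT 2, WT 3, WT 4 and HOM 5 had 12.37 to 12.57, and HOM 1 and HOM 3 had 11.64 and 11.37. Among the low tumors, HET 1 was lowest. These values chose the sides and are given without a test.

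Stard3, cluster 17255963, followed the same division. Its level was 11.93 ± 0.74 in the high tumors (SD, n = 6) and 8.41 ± 0.41 in the low tumors (SD, n = 9), and the ranges, 10.95 to 12.57 and 7.93 to 9.15, did not overlap. Again WT 2, WT 3, WT 4 and HOM 5 were the brightest, at 12.15 to 12.57, and HOM 1 and HOM 3 followed at 11.03 and 10.95. The log2 difference was 3.51 over all tumors, 3.93 within WT and 2.81 within HOM. For Pgap3 the same differences were 3.89, 3.75 and 3.16. Pgap3 and its neighbours within 50 named genes on each side belong to the stretch that the division was drawn from, so they are described without a test.

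**Figure D1:**
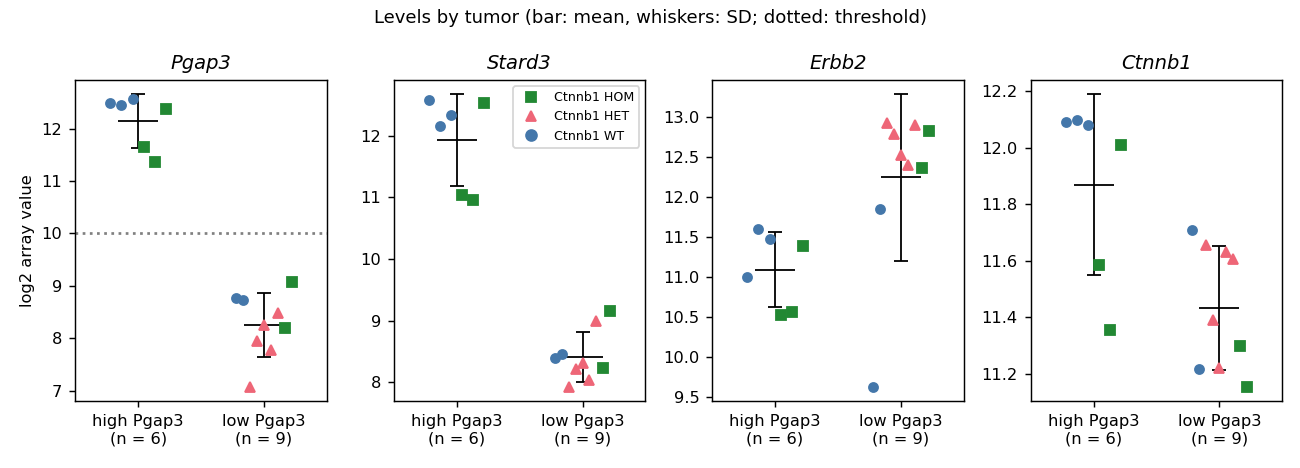
Log2 array values of Pgap3, Stard3, Erbb2 and Ctnnb1 in each tumor, for tumors with high Pgap3 (n = 6) and low Pgap3 (n = 9). Points are tumors, marked by Ctnnb1 genotype, horizontal bars are means, whiskers are SD, and the dotted line is the Pgap3 threshold of 10. Stard3 separates as Pgap3 does, and Erbb2 is lower in the high tumors except for the low tumor WT 1 at 9.63.

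The genes around Pgap3 did not move as a single block. Of the 20 named genes within 10 places of Erbb2 in gene order, 18 had a higher mean in the high tumors, and 6 by more than 1 on the log2 scale. All 10 genes that precede Erbb2 had a higher mean, with a median difference of 1.12. The 10 that follow it had a median difference of 0.09. The ranges of the sides did not overlap for Pgap3 and Stard3 alone among these 20, whereas 0.0564% of the 14173 genes tested outside the neighbourhood had no overlap. The share is printed for scale only, since the division was drawn from this stretch.

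Ahead of Erbb2, the mean difference rose from Rpl19 to Stac2, which were named after their values were seen. Rpl19, which encodes a ribosomal protein and lies 12 genes before Erbb2, was 12.99 ± 0.10 in high and 12.94 ± 0.17 in low tumors. Stac2, an adaptor protein gene 11 genes before Erbb2, was 10.26 ± 0.53 in high and 8.45 ± 1.05 in low tumors, without overlap (9.69 to 11.03 and 6.86 to 9.53). Its log2 difference was 2.56 within WT and 0.64 within HOM. The next genes toward Erbb2 were raised in a subset of the high tumors. Fbxl20, which encodes an F-box protein, was 11.99 in WT 3 and 12.06 in HOM 5, and 8.67 to 9.08 in the other 4 high tumors. The low tumors lay between 8.10 and 9.25. Med1, a subunit of the Mediator complex that links transcription factors to RNA polymerase, was 13.29 in WT 3 and 13.33 in HOM 5, against 9.90 to 10.61 in the other high tumors and 9.76 to 10.67 in the low tumors. Cdk12, a kinase of the transcription machinery, was at least 11.90 in the same 2 tumors, against 8.49 to 8.95 in the other high tumors and 8.28 to 8.96 in the low tumors. Mir5119, a microRNA gene, had 7.43 and 8.84 in WT 3 and HOM 5 and at most 3.24 elsewhere, a level below the array medians of 5.54 to 5.73. So WT 3 and HOM 5 shared a wider stretch of high values, and their genotypes differ.

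Closer to Erbb2, HOM 5 stood apart again. Neurod2, a neuronal transcription factor gene, was 7.09 in HOM 5 and 5.43 to 5.82 in the other high tumors. Pnmt, which encodes the enzyme that makes adrenaline, was 7.12 in HOM 5, 5.84 in WT 2 and 5.47 in WT 4, against 4.40 to 4.45 in the other high tumors and a median of 4.55 in the low tumors. Tcap, a titin-binding protein of the muscle sarcomere, was 7.54 in HOM 5 and 6.17 to 6.87 in the other high tumors. The low tumor HET 3 had 7.35 for Tcap, and its mean over 9 skeletal muscle markers was 10.999, against 6.24 to 6.95 in the other low tumors. The part of muscle in that value was not tested. In bulk tumor RNA, fewer cells of a type and less RNA per cell cannot be told apart.

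Beyond Erbb2, Mien1, which encodes a small protein tied to cell migration, was 12.82 ± 0.67 in high and 11.85 ± 0.40 in low tumors. It was 12.74 to 13.24 in 5 high tumors and 11.51 in HOM 3. Grb7, an adaptor that binds activated ErbB receptors, did not follow the division. It was 11.57 ± 1.78 in high and 10.90 ± 1.54 in low tumors, with 2.44 within WT and -1.38 within HOM as the log2 difference. HOM 5 had only 8.44, although its Pgap3 and Stard3 were among the highest, and the lowest tumor of all was HET 1 at 7.77. Ikzf3, a lymphoid transcription factor gene, differed by -0.10. Its highest value, 8.40, was in HET 1, whose mean over 8 B and plasma cell markers was 10.13 against 6.94 to 7.81 in the other low tumors. From Zpbp2 to Gsdma, differences lay between -0.05 and 0.94. Psmd3, a proteasome subunit gene 10 places after Erbb2, stood apart in WT 4 and HOM 1 among the high tumors, at 12.11 or more, and in HET 5 among the low tumors, at 12.32. The other tumors lay between 9.53 and 11.27. Of the 40 genes 11 to 50 places after Erbb2, 33 had a lower mean in the high tumors, with a median difference of -0.29. Only 19 of these 40 passed the level filter, and many of the others are keratin and keratin-associated genes. In several of those the low tumor WT 1 stood alone. Krt26, named after its values were seen, was 8.18 in WT 1 and at most 4.78 in every other tumor. Of the 40 on the other side, 22 were higher and 18 lower, with a median of 0.02. Socs7, a suppressor of cytokine signalling family gene 30 places before Erbb2 that was named after its values were seen, was 11.99 in WT 4 and at most 7.78 in every other tumor.

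**Figure D2:**
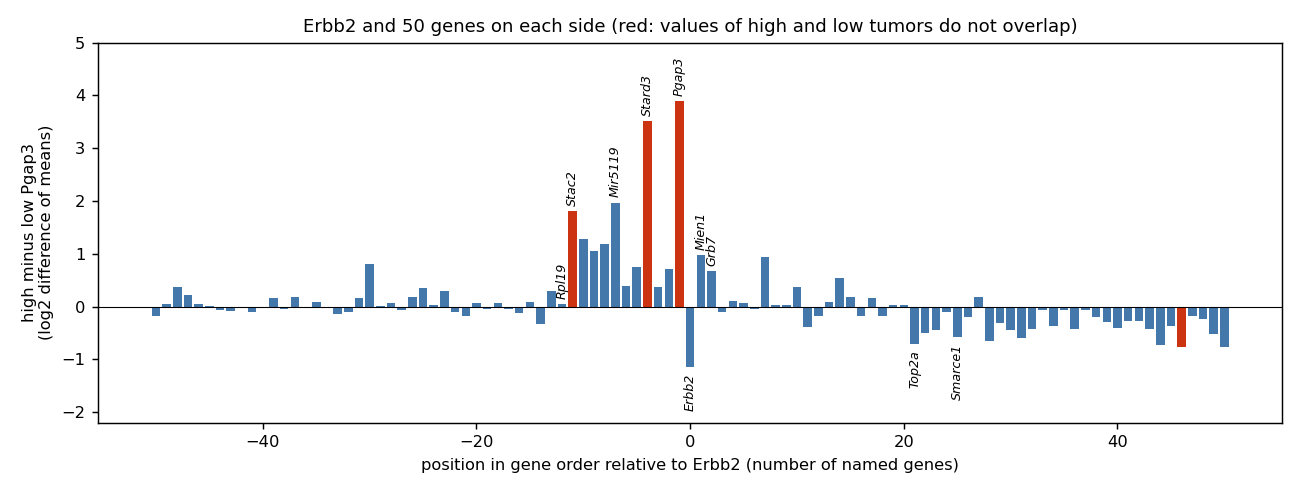
Log2 difference of means, high minus low Pgap3, for Erbb2 and the 50 named genes on each side in gene order. Red bars are genes whose values in the 6 high and 9 low tumors do not overlap. The tallest bars are Pgap3 (3.89) and Stard3 (3.51), and Erbb2 beside them is at -1.15. Gsdma3 (0.94) and Socs7 (0.80) are raised farther out.

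**Figure D3:**
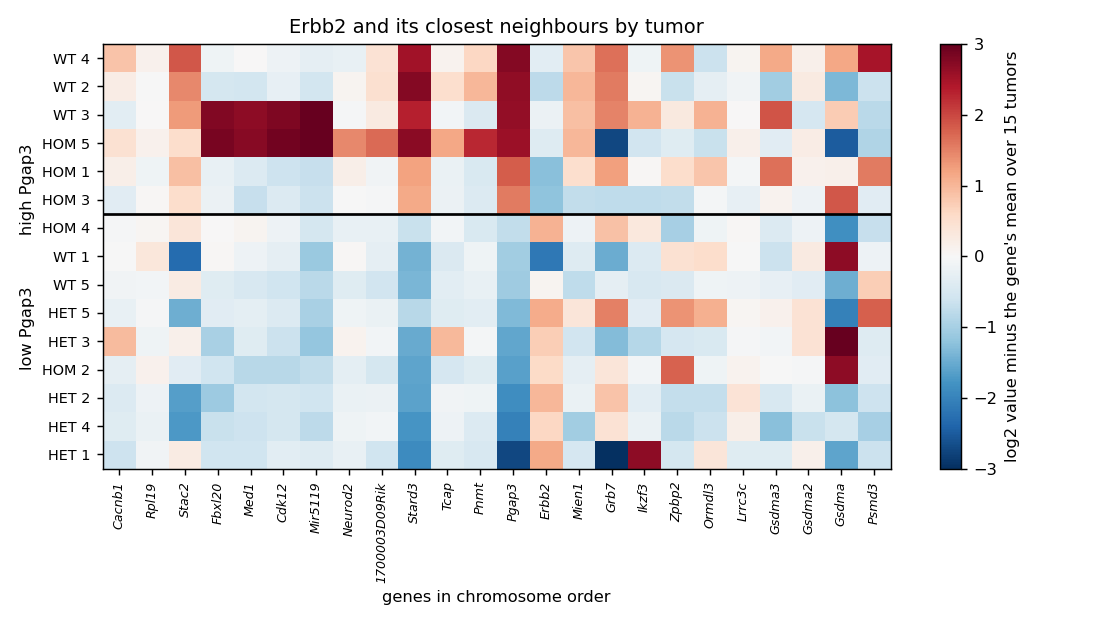
Log2 value of each gene in each tumor, minus the gene's mean over 15 tumors, for genes from 13 places before to 10 places after Erbb2. Tumors run from high to low Pgap3 within each side, and the black line divides the sides. Fbxl20 to Mir5119 are raised in WT 3 and HOM 5, and Grb7 is low in HOM 5 and HET 1.

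Erbb2, cluster 17255999, went the other way from its neighbours. In the high tumors it was 11.09 ± 0.47 (SD, n = 6), with a lowest value of 10.52 in HOM 1, a median of 11.20 and a highest of 11.60 in WT 3. In the low tumors it was 12.24 ± 1.04 (SD, n = 9), with a lowest value of 9.63, a median of 12.52 and a highest of 12.92. Of the 9 low tumors, 8 lay above every high tumor. The exception was WT 1 at 9.63, which was below them all. The mean was thus 2.22-fold lower in the high tumors, a log2 difference of -1.15 (95% interval -2.05 to -0.24). An exact permutation test, two-sided and with 5005 ways to place the 6 high tumors among 15, gave p = 0.0280. Among all genes tested, the limma difference did not pass (adjusted p = 0.916). Leaving out WT 1, the exception, removed the overlap. The exact permutation p could then only be 0.000333, the smallest that 6 against 8 tumors can give, so it adds no evidence. The difference was then -1.48. Without HOM 1 or HOM 3 it was -1.04 in each case, and the exact permutation p was 0.05495 and 0.05395.

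The Erbb2 difference rested in part on the HET tumors, all of which were low for Pgap3 and had 12.39 to 12.92. Within HOM it was 10.52 to 11.39 in the 3 high tumors and 12.36 and 12.83 in the 2 low tumors, without overlap and with a difference of -1.77. Within WT it was at most 11.60 in the 3 high tumors, and 9.63 and 11.85 in the 2 low tumors, a difference of 0.62 that turned on WT 1. With 3 against 2 tumors an exact permutation test cannot go below 0.1, and it gave 0.100 within HOM and 0.700 within WT. An exact permutation within both genotypes together gave a mean difference of -0.58 and p = 0.360 over 100 assignments. Without WT 1 the same exact permutation gave -1.13 and p = 0.05 over 40 assignments, a p that also depends on leaving out the exception. The HOM and WT differences differed by -2.38 (limma interaction, unadjusted p = 0.0185, adjusted p rounding to 1), and that contrast also rests on WT 1.

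Outside the neighbourhood, no gene separated high from low tumors after adjustment. Of the 14173 genes tested with limma, 0 passed an adjusted p of 0.05 (0% called), and the smallest adjusted p was 0.755. A linear model without moderation also called 0. An unadjusted p under 0.05 was reached by 761 genes, 5.37% of those tested, where 709 would be the average by chance. Of these, 464 (3.27% of genes tested) were higher and 297 (2.1%) lower in the high tumors. With genotype as a term the adjusted test again called 0 genes, and the unadjusted count was 430, or 3.03%, of which 200 were higher in the high tumors (46.5%, against 61.0% without the term). The test for a difference unlike in HOM and WT called 0 genes after adjustment (limma interaction, 382 at an unadjusted p under 0.05, or 2.7%). With 3 high and 2 low tumors in each of these genotypes, it can miss such differences. For 11752 genes, 82.9% of those tested, the 95% interval of the difference lay within 1 log2 unit of zero.

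By their closest tumor, the tumors also did not group by Pgap3 over the whole set of tested genes. The median correlation across the 14173 genes was 0.938 among the 15 pairs of high tumors, 0.898 among the 36 pairs of low tumors and 0.916 among the 54 pairs of a high and a low tumor. By that median the high tumors were more alike than the mixed pairs, and the low tumors less alike. None of the 6 high tumors had another high tumor as its closest, and 4 of the 9 low tumors had a low one. The closest pair was HOM 1, which is high, and WT 5, which is low, at 0.978.

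The 12 genes with the smallest p outside the neighbourhood are given as a description, since none passed (adjusted p 0.755 for Pipox and 0.890 for the others, limma). In 10 of them the mean was higher in the high tumors. Pipox, a peroxisomal oxidase that breaks down sarcosine and pipecolic acid, was 6.65 ± 0.59 in high and 5.53 ± 0.22 in low tumors. It lay at 6.43 to 7.10 in 5 high tumors, above the low range of 5.19 to 5.89, and HOM 3 at 5.57 fell inside that range. Without HOM 3, Pipox alone passed (log2 difference 1.35 instead of 1.13, limma adjusted p = 0.00125). Like Pgap3 and Erbb2 it is a gene of chromosome 11, outside the 50 genes on each side.

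Among the others were receptors and signalling genes. Ephb4, a receptor for ephrin-B2, was 10.33 ± 0.25 in high and 9.64 ± 0.32 in low tumors, and its ranges, 10.20 to 10.84 and 9.14 to 10.10, did not overlap. Lpar3, a receptor for lysophosphatidic acid, was 6.99 ± 0.39 in high and 5.94 ± 0.56 in low tumors, where HOM 2 and WT 5 reached 6.84 and 6.75. Limd1, a LIM domain scaffold protein of cell junctions, was 10.10 ± 0.61 in high and 9.03 ± 0.37 in low tumors, and HOM 3 was again the lowest of the high tumors at 9.01. Trabd2b, a membrane protease that inactivates Wnt proteins, was 8.31 ± 0.60 in high and 7.11 ± 0.58 in low tumors. Its difference was 1.80 within WT and 0.51 within HOM.

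Transporters, RNA and trafficking genes made up the rest. Flvcr2, a membrane transporter, had the largest difference of the 12, with 8.63 ± 0.82 in high and 6.98 ± 0.80 in low tumors. With genotype as a term that difference was 1.09 instead of 1.65. Pan2, a subunit of a deadenylase that shortens mRNA tails, was 9.30 ± 0.18 and 8.91 ± 0.13, and the transcriptional regulator Irf2bpl was 9.16 ± 0.22 and 8.61 ± 0.27, in high and low tumors. The ranges of Irf2bpl, 8.93 to 9.54 and 8.14 to 8.93, lay side by side. Tcaf1, which binds TRP channels, was 8.84 ± 0.29 in high and 8.18 ± 0.33 in low tumors. Trak1, an adaptor that moves mitochondria along microtubules, was 10.11 ± 0.39 in high and 9.43 ± 0.28 in low tumors, and its difference with genotype as a term was 0.82. Apoc2, the cofactor of lipoprotein lipase, and Nsf, the ATPase of vesicle fusion, had lower means in the high tumors. Apoc2 was 6.65 ± 0.27 in high and 7.28 ± 0.30 in low tumors, and Nsf was 9.19 ± 0.18 and 9.61 ± 0.19. All 12 kept the direction of their difference within WT and within HOM. They were chosen by p in these same tumors, so this is no separate support.

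**Figure D4:**
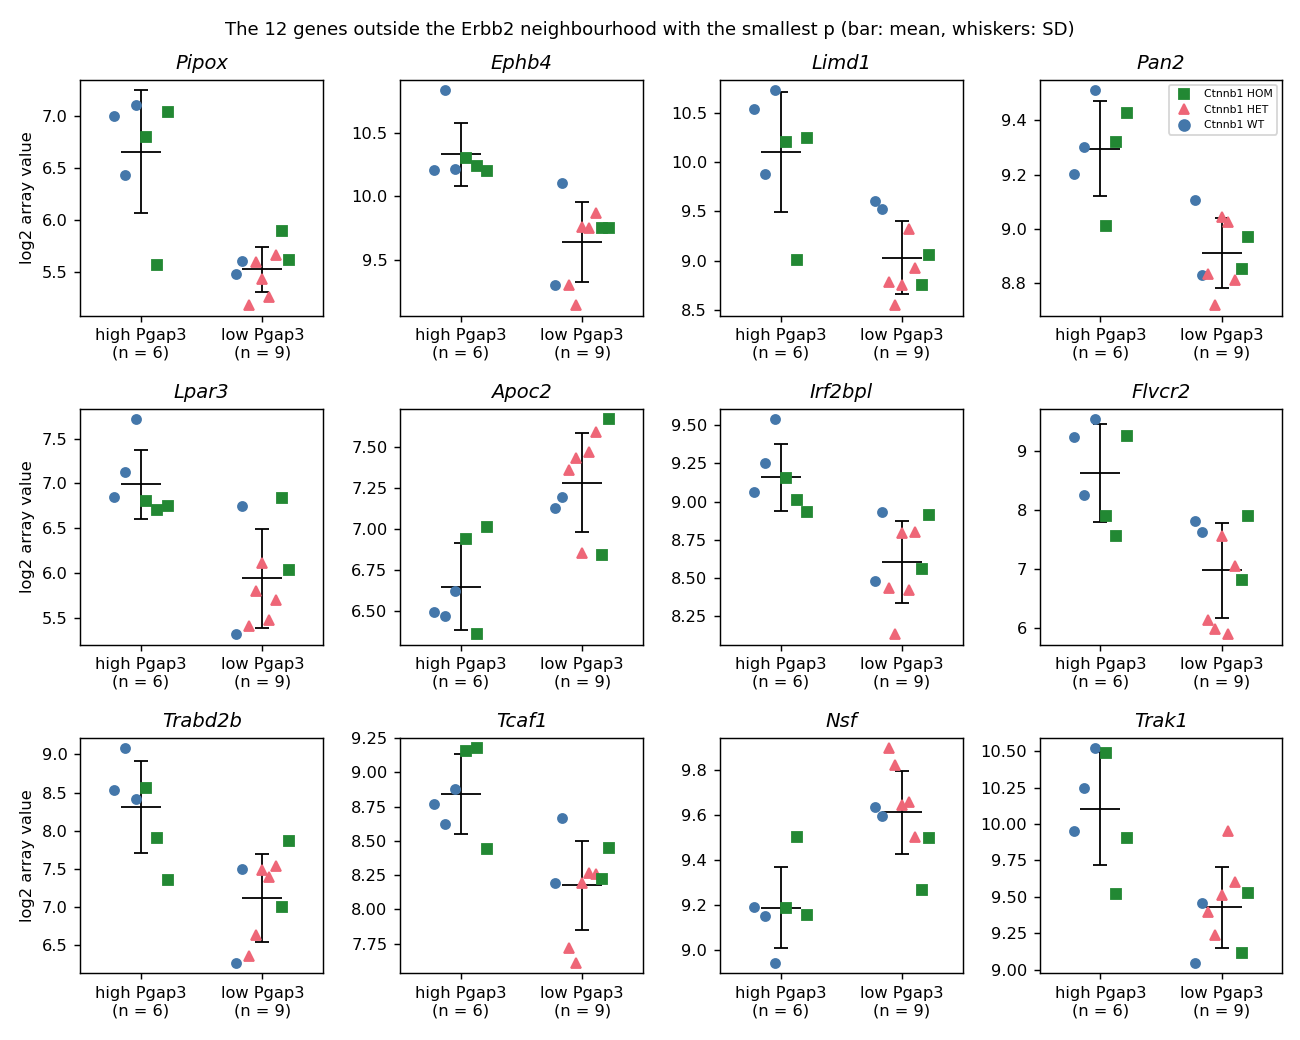
Log2 array values by tumor of the 12 genes outside the Erbb2 neighbourhood with the smallest p, for tumors with high Pgap3 (n = 6) and low Pgap3 (n = 9). Points are tumors marked by Ctnnb1 genotype, bars are means and whiskers SD. None passed adjustment, and only Ephb4 and Irf2bpl show no overlap of the sides.

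Across all genes tested outside the neighbourhood, the sides did not overlap for 8 (0.0564%), 5 higher (0.0353%) and 3 lower (0.0212%) in the high tumors. The higher ones were Ephb4, Irf2bpl, Etv5, Fam131c and St6galnac4, and the lower ones Tmed5, Tmem191c and Atg4a. Those not given above were named after their values were seen. Etv5, an ETS transcription factor that MAPK signalling induces, was 10.52 ± 0.42 in high and 9.36 ± 0.75 in low tumors (limma adjusted p = 0.890). Its values were 10.17 to 11.35 in the high and 8.34 to 10.17 in the low tumors, with HOM 3 the lowest of the high and HOM 4 the highest of the low.

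Etv5 belongs to a list of 16 feedback and output genes of the MAPK cascade, through which Erbb2 signals. The high tumors had the higher mean for 14 of the 15 members tested, and 0 passed (limma). An unadjusted p under 0.05 was found for 4 of the 15, 26.7%, against 5.37% of all genes. Of the lists given below, Schwann cell and nerve genes had 27.3% and luminal progenitor genes 18.2%. The median difference was 0.36 over the MAPK list and -0.0038 over all genes tested, and 0.37 for the MAPK list with genotype as a term. Spred1, an inhibitor of Ras and MAPK signalling, was 10.75 ± 0.30 in high and 10.39 ± 0.29 in low tumors. Etv1, a relative of Etv5, was 9.38 ± 0.74 and 8.55 ± 0.75. The phosphatase gene Dusp5, named after its values were seen, was the exception, at 9.47 ± 0.53 in high and 9.61 ± 0.50 in low tumors. The mean of the 15 genes was 9.61 to 10.05 in the high tumors and 8.91 to 9.62 in the low tumors, with WT 5 as the highest low tumor and WT 1 as the lowest. Within WT it was 9.85 to 10.05 in the high tumors and 8.91 and 9.62 in the low ones. Within HOM it was 9.61 to 9.67 in the high tumors and 9.42 and 9.57 in the low ones. The members share tumors and vary together, so the count is a description. Without WT 1, 14 of 15 members again had a higher mean, with a median of 0.30. Without the HET tumors it was 13 of 15. The median was then 0.37, by design the same as with genotype as a term.

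Genes that share a function with Pgap3, Stard3 or Erbb2 were divided in sign over all tumors. Of 24 tested genes of GPI anchor synthesis and remodelling, 11 were higher and 13 lower in the high tumors by their means, 0 had an unadjusted p under 0.05, and the median difference was -0.02. Without the HET tumors 3 were higher and 21 lower, with a median of -0.08. The members with the smallest p were Pigc, a subunit of the enzyme for the first step, at 7.03 ± 0.07 in high and 7.25 ± 0.25 in low tumors, and Pigl and Pigs, with differences of -0.26 each. Of 15 genes of sterol synthesis and transport, 5 were higher and 10 lower in mean, again with 0 at an unadjusted p under 0.05 and a median of -0.08. Of 10 other ErbB receptors and ligands, 4 were higher and 6 lower, with a median of -0.14. Without the HET tumors 6 were higher and 4 lower, with a median of 0.15, and without WT 1 the median was -0.35. Epiregulin (Ereg), a ligand of the family, was 6.70 ± 0.46 in high and 7.99 ± 1.82 in low tumors. Its difference was -0.21 within WT and -0.32 within HOM, and the highest values were those of HET 1, HET 2 and HET 4, at 11.40, 10.19 and 8.76.

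Beta-catenin itself was examined because the mice carry floxed Ctnnb1, and it was named after its values were seen. Ctnnb1, cluster 17523257, was 11.87 ± 0.32 in high and 11.43 ± 0.22 in low tumors (log2 difference 0.44, limma adjusted p = 0.890). Within WT it was 12.08 to 12.10 in the 3 high tumors and 11.22 and 11.71 in the low ones. Within HOM it was 11.36 to 12.01 in the high and 11.15 and 11.30 in the low tumors. Both genotypes thus had their higher Ctnnb1 values in the tumors with high Pgap3. WT 5, low for Pgap3, had the lowest Ctnnb1 of the WT tumors, 11.22. HOM 5, high for Pgap3, had the highest of the HOM tumors, 12.01. The genotypes overlapped in Ctnnb1, and the HET tumors lay between 11.22 and 11.66. How far this cluster reads the floxed allele was not tested. Without WT 5 and HOM 5, 0 genes passed and the Erbb2 difference was -1.26. Wnt target genes had 11 of 18 members higher in mean and 0 that passed, with a median difference of 0.05. Lef1, a transcription factor that partners beta-catenin, was 7.63 ± 1.48 in high and 6.42 ± 0.77 in low tumors.

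Cell type and lineage lists were compared to describe what else differed between the sides, and no member of any of the 25 lists passed. Neutrophil genes had a lower mean in the high tumors for 14 of 14 members, with a median of -1.11, and list means of 6.95 to 8.96 in high and 6.41 to 10.75 in low tumors. Mmp8, the neutrophil collagenase, was 6.51 ± 0.57 in high and 8.18 ± 1.98 in low tumors. With genotype as a term the median of that list was 0.07, and without the HET tumors 8 of 14 members were higher in the high tumors. Adipocyte genes were lower in mean for 13 of 13 members, with a median of -0.55 and of -0.77 with genotype as a term. Within HOM the list mean was 6.75 to 7.29 in the high tumors, and 8.14 and 9.15 in HOM 2 and HOM 4. Within WT it was 6.95 to 7.12 in the high tumors and 7.14 and 7.22 in the low ones. Plin1, which coats lipid droplets, was 5.48 to 5.91 in the high tumors and 5.51 to 8.35 in the low tumors, with HOM 4 at the top. Without WT 1, 10 of 13 adipocyte members were lower, with a median of -0.68.

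Epithelial identity genes had 13 of 17 members higher in mean, with a median of 0.31 that was -0.06 with genotype as a term. HET 1 had the lowest list mean, 7.41, against 9.51 to 10.41 in the high tumors, and without HET 1 and HET 3 the median was 0.035. Luminal progenitor genes had 9 of 11 members higher and a median of 0.46, and -0.03 with genotype as a term. Sox10, a transcription factor of that lineage and of neural crest, was 10.60 to 11.73 in the high tumors. In the low tumors it was 10.47 to 10.87 except in HET 1, HET 2 and HET 4, where it was 6.92, 8.14 and 7.25. Keratin 18 (Krt18), a luminal keratin, was 12.19 ± 0.24 in high and 11.75 ± 0.45 in low tumors. Interferon response genes had 13 of 15 members higher, with a median of 0.50 and list means of 7.14 to 10.40 in high and 7.60 to 9.64 in low tumors, so the low range lay inside the high one. With genotype as a term that median was 0.28, and Isg15, an interferon-induced ubiquitin-like protein, differed by 1.40 within WT and -0.69 within HOM. Cell cycle genes had 19 of 20 members lower in mean and 0 at an unadjusted p under 0.05, with a median of -0.17. Without WT 5 and HOM 5, 13 of 20 were lower, with a median of -0.09. Fibroblast and collagen genes had 16 of 17 members higher, likewise with 0 at an unadjusted p under 0.05, and a median of 0.30. Without WT 1 these were 11 of 17 and 0.08, and with genotype as a term the median was 0.69. HET 4 had the highest mean of that list, 11.32, and HET 5 the lowest, 7.08. Milk secretion genes had a median of -0.21, and of -1.27 with genotype as a term, and WT 1 had the highest list mean, 12.01. Without WT 1 the median was -0.02, with 5 members higher and 6 lower. Schwann cell and nerve genes had 8 of 11 members higher and a median of 0.34. Without the HET tumors these were 6 of 11 and 0.09, the same median as with genotype as a term. S100b was 7.44 ± 1.24 in high and 5.46 ± 1.30 in low tumors, and the neurotrophin receptor Ngfr was 6.37 ± 0.36 and 6.86 ± 0.25.

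**Figure D5:**
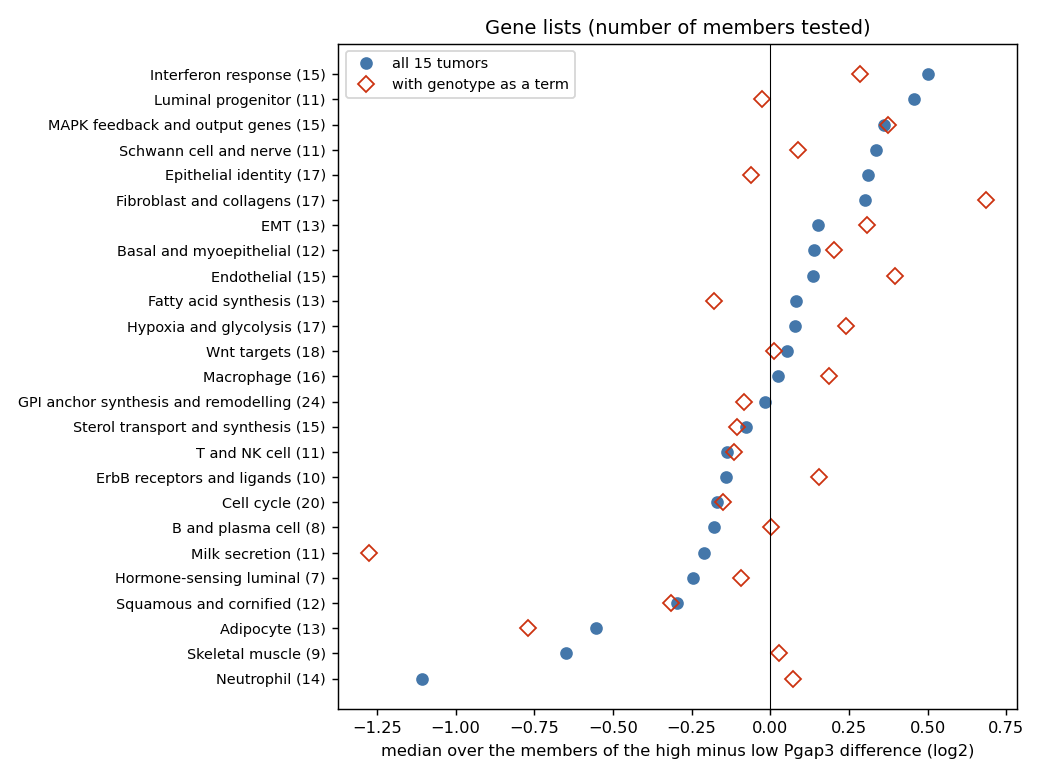
Median over the members of each list of the log2 difference between high and low Pgap3, in all 15 tumors (filled circles) and with genotype as a term (open diamonds). The number of tested members is in brackets. The MAPK list has nearly the same median in both (0.36 and 0.37), and the neutrophil list has -1.11 in all tumors and 0.07 with the term.

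The remaining lists are given by their medians, of which several depended on single tumors. EMT genes had a median of 0.15, which was 0.31 with genotype as a term and -0.01 without WT 1. Endothelial genes had 0.14, which was 0.40 with the term and -0.07 without WT 5 and HOM 5. Macrophage genes had 0.02, which was 0.19 with the term and -0.14 without WT 1. Basal and myoepithelial genes had 0.14, and -0.10 without HET 1 and HET 3. T and NK cell genes had -0.14 and B and plasma cell genes -0.18, and without HET 1 and HET 3 these were 0.01 and 0.12. Oxtr, the oxytocin receptor of myoepithelial cells, was 7.13 ± 0.71 in high and 6.39 ± 0.36 in low tumors. Its difference was 1.39 within WT and -0.18 within HOM. Squamous genes had a median of -0.30, which was -0.31 with genotype as a term and -0.52 without WT 1. Hormone-sensing luminal genes had -0.24, and -0.09 with the term. Hypoxia and glycolysis genes had 0.08, with 10 of 17 higher, and without the HET tumors 17 of 17 were higher with a median of 0.24. Fatty acid synthesis genes had 0.08, and -0.18 with the term. Skeletal muscle genes had a median of -0.65 that was 0.03 with genotype as a term, and HET 3 alone was far above the rest.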

How the data were processed

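Total RNA of 15 mouse mammary tumors, 1 Affymetrix whole-transcript array each, was labelled from 100 ng per tumor, per the labels' protocols. The table the authors deposited holds 41345 transcript clusters, taken here as log2 values because of their range. Transcriptome Analysis Console and Affymetrix Expression Console are named, per the submitters' processing notes, with versions and normalization not given in the sources used here. No signal over background was available, and the number of arrays limits the precision.

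Clusters with exactly 1 gene symbol (23521) were named through the platform annotation and a RefSeq table of GRCm38.p6, which also gave the gene order (23328 found by Entrez ID). Of several clusters of a gene, the brightest was kept (22180 genes), and a gene was tested when above the array median on at least 5 arrays (14243 genes). The neighbourhood was the 50 named genes on each side of Erbb2, of which 70 passed that filter, and it was kept out of the tests, leaving 14173 genes, Erbb2 among them. High and low tumors were compared with limma 3.58.1 in R 4.3.3 (lmFit, eBayes, two-sided, Benjamini-Hochberg, threshold 0.05). Adjusted p-values are from limma. Erbb2 was also compared by a two-sided exact permutation test.

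Replicate numbers follow accession order. Genes were named by a rule: Erbb2, Pgap3, Stard3, the 12 smallest p where fewer than 12 passed, up to 3 members of each list by p, and the neighbours within 10 genes. Genes named otherwise are said to be so. The members, lists and tests were chosen with earlier results of these data known. On simulated data with 200 changed genes among 14173, the test of high against low recovered 68 of 100 genes changed by 1 and 90 of 100 changed by 2 on the log2 scale, with 14 false among 172 calls. Noise there was independent between genes and had the same spread on both sides, unlike that of genes such as Erbb2. The rates hold for that setting, with 200 genes changed at once, and may be lower where fewer genes change. Alternatives were genotype as a term, single genotypes, other Pgap3 thresholds, Pgap3 as a continuous value, other filters, normalizations, neighbourhoods and models, and leaving out each tumor. A pair of alternatives was chosen after seeing the data, one without HET 1 and HET 3, the other without HOM 5 and WT 5.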

Additional observations from a re-analysis of the deposited data

Results flagged for a closer look

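The 66 groups examined were formed by Erbb2, its neighbours within 10 genes and the 12 genes with the smallest p, on each side of the division. Neighbours farther out, such as Socs7 and Krt26, were not examined in this way. Of the 66 groups, 7 had a tumor far from the others by its gap relative to the range. Chance gives about 1 in 20. Among the tumors with low Pgap3, Erbb2 was 9.63 in WT 1 against 11.85 to 12.92 in the other 8, Tcap was 7.35 in HET 3 against 5.86 to 6.29, and Ikzf3 was 8.40 in HET 1 against 4.85 to 6.04. Among the tumors with high Pgap3, HOM 5 had 7.09 for Neurod2, against 5.43 to 5.82 in the others, and 8.67 for 1700003D09Rik, an uncharacterised gene, against 6.87 to 7.44. Mien1 was 11.51 in HOM 3 against 12.74 to 13.24, and Ephb4 was 10.84 in WT 3 against 10.20 to 10.30. The Erbb2 difference between high and low Pgap3 was -1.77 within HOM and 0.62 within WT. These differed by -2.38 (limma interaction, unadjusted p = 0.0185), which did not pass adjustment over all genes.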

How the results depend on the processing

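The count of genes that differed was 0 in 33 of 35 alternatives. With the neighbourhood included in the adjustment the count was 2, made up of Pgap3, which chose the sides, and its neighbour Stard3, so it is no test result, and 0 genes outside the neighbourhood were added. With 1 tumor left out it was 0 to 1, the call being Pipox without HOM 3. The interaction of side and genotype called 0 genes with eBayes trend and robust options and with no filter. Among the alternatives that called 0 genes, the smallest adjusted p was 0.0564, with Pgap3 as a continuous value. Erbb2 was lower in high Pgap3 in 28 of 29 alternatives, which repeat each other in the same way. In the WT tumors alone it was higher, by 0.62. By the exact permutation test (limma with genotype as a term) it kept its direction but lost its p under 0.05 with genotype as a term (-0.58), in the HOM tumors alone (-1.77), without the HET tumors (-0.58), with a threshold of 9 (-0.83) and without HET 1 and HET 3 (-1.01), the single-genotype fits having fewer tumors. The cause was not tested in the others. Leaving out 1 tumor gave -1.48 to -1.04, and p under 0.05 was lost without HOM 1 or HOM 3 (exact permutation p = 0.05495 and 0.05395). The limma adjusted p of Erbb2 passed in none of these. Of 415 values of the 12 genes with the smallest p under these alternatives, 0 changed sign. Those genes were chosen by p in the same tumors, so this is no separate support. Of genes with an unadjusted p under 0.05, 61.0% were higher in the high tumors, and 59.5% with each array centred on its median. That share was 46.5% with genotype as a term and without the HET tumors, 46.7% in WT alone, 28.4% in HOM alone and 72.5% without WT 5 and HOM 5. No paired analysis was possible because the labels carry no replicate numbers that tie tumors across genotypes. Without a measure of signal over background, differences of genes near or below the array medians, such as Mir5119, have an uncertain size.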

Other observations

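Chromosome 11, which holds Erbb2, was also described beyond the neighbourhood, in stretches chosen with results known. Of 233 tested genes more than 200 named genes after Erbb2, 26 were lower and 3 higher in the tumors with high Pgap3 at an unadjusted p under 0.05 (12.4%, against 5.37% of all genes). None passed adjustment. The median difference of these 233 genes was -0.16, and -0.23 with genotype as a term. By tumor, the median deviation from the gene means was -0.23 in HOM 5, -0.16 to -0.14 in WT 2, WT 3 and WT 4, -0.09 in HOM 1 and 0.17 in HOM 3. Among the low tumors HET 4 was lowest at -0.25, and the other 8 lay between -0.01 and 0.17. HOM 3 thus stood with the low tumors and HET 4 with the high ones. Of 665 tested genes more than 200 named genes before Erbb2, 3.31% had an unadjusted p under 0.05, with a median difference of -0.01. Genes of 1 chromosome that share a gain or loss are not independent, and no test of the stretch was made.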
